A study of Homo sapiens with 6 samples.

Results

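The genes described here make cholesterol or govern its supply. The 29 genes were chosen by pathway, with earlier results of these data known. They comprise 19 enzymes of sterol synthesis, 5 genes of the SREBP control circuit and 5 genes of sterol traffic and uptake. All probe sets annotated to these genes were taken, 64 of the 54675 on the array. A probe set is a group of short probes whose signals are combined into 1 value for a transcript. Of the 29 genes, 28 had a probe set and 27 had one annotated to that gene alone, and these 27 are among the 16868 genes tested. FDFT1, the squalene synthase, was not analysed here, and both probe sets of CYP51A1 also carry the symbol LRRD1, so they are given as probe sets and stand in no gene count.

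Total RNA came from DMS-53, an established human small cell lung cancer cell line, after 24 h in medium with 25 µM Dp44mT, in medium with 250 µM DFO, or in control medium alone. Dp44mT is a thiosemicarbazone iron chelator, and DFO (desferrioxamine) is an iron chelator that enters cells poorly, for which the submitters gave it at the higher dose. The doses therefore differ between the chelators. Each group has 2 Affymetrix U133 Plus 2.0 arrays, numbered here by the set numbers in the sample titles. Nothing in the labels tells if both arrays of a group are of separate cultures. The p-values therefore rest on the difference between arrays of a group, which may be technical spread alone.

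Cholesterol is built from acetyl-CoA through mevalonate, the prenyl diphosphates, squalene and lanosterol. The transcription factors SREBF1 and SREBF2 (the SREBPs) are carried by SCAP to the Golgi, where they are cut free to switch on sterol and fatty acid genes, and INSIG1 and INSIG2 hold SCAP in the endoplasmic reticulum when sterols are plentiful. SQLE, CYP51A1, MSMO1 and SC5D use molecular oxygen, and the last 3 of them also carry iron. Iron chelation is known to stabilise hypoxia-inducible factors (HIFs), and INSIG2 has been described as a HIF target in mouse liver.

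Reference promoter sequence was read for the members from RefSeq's table on GRCh38.p14, as windows of 250 bases before and 50 bases after each annotated start. Of the 29 genes, 26 had a window, 35 windows in all. 3 of these windows are shown: that of INSIG2, the only member past the test, that of its paralogue INSIG1, and that of SREBF2, which encodes an SREBP and is known to be switched on by SREBPs itself. All motifs were searched on both strands. The INSIG2 window is the second of its 2 annotated starts (chr2:118088300-118088599, plus strand), that of INSIG1 is chr7:155297628-155297927 (plus strand) and that of SREBF2 is chr22:41832855-41833154 (plus strand). Capitals mark ACGTG, the core of the HIF response element, on either strand in INSIG2 and INSIG1 (CACGT is that core read on the other strand), and TCACCCC, the centre of the classic sterol response element, in SREBF2.
INSIG2: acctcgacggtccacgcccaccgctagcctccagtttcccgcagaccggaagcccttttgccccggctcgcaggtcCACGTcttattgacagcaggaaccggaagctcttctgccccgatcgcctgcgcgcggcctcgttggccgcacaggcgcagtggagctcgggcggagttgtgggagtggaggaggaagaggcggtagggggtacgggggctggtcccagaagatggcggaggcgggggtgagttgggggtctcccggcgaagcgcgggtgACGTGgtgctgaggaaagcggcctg
INSIG1: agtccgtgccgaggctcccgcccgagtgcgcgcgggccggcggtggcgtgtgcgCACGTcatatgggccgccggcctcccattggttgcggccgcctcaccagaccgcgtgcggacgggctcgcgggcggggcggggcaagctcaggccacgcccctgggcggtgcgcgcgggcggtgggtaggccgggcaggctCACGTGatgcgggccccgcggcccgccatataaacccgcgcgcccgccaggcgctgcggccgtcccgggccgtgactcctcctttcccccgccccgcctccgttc
SREBF2: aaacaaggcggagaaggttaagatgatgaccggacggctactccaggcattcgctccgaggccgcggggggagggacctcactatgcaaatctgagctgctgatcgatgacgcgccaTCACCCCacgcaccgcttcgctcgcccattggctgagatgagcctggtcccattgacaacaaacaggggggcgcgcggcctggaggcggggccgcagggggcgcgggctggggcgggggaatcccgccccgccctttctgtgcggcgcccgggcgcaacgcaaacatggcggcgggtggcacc

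TCACCCC was in 5.48% of the 35116 windows of the table and in windows of 3 of the 26 members, INSIG2, MVK and SREBF2 (in INSIG2 on the other strand, left in lower case above). ACGTG was in 21.4% of all windows and in those of 8 members: ABCA1, DHCR7, INSIG1, INSIG2, LSS, SC5D, SCAP and STARD4. In the INSIG2 window shown, ACGTG lies at -174 and, after the start, at 26. In the window of the first INSIG2 start, not shown, ACGTG lies at -95 only, and TCACCCC is absent. The INSIG2 windows overlap, and the match at -95 is the same bases as the match at -174. The window shown is the one with more matches. The E-box CACGTG, each copy of which holds ACGTG on both strands, was in 7.26% of all windows and in those of 5 members, INSIG1 among them and INSIG2 not. CCAAT, the NF-Y box that often stands beside SREBP sites, was in 34.6% of all windows and in those of 19 members. The member counts are of genes, some with several windows, so they are not shares of the same kind. These matches describe the letters of the reference windows and locate no bound factor.

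Intensities are linear and were deposited on no common scale: array medians were 83.6 and 49.9 for Dp44mT, 85.5 and 63.0 for DFO and 88.9 and 88.8 for control. All values below, unless called intensities, are therefore log2(intensity + 16) after quantile normalization across the 6 arrays, and a change is the difference of group means on that scale. The arrays within a group correlated at 0.892 for Dp44mT, 0.918 for DFO and 0.971 for control over all probe sets. Of the genes chosen to check the treatment, VEGFA and NDRG1, targets of HIF and of iron loss, rose with Dp44mT (log2 changes 2.33 and 2.02) and with DFO (2.49 and 2.11), all past an adjusted p of 0.05, and TFRC, the transferrin receptor, differed by 0.70 with Dp44mT (adjusted p = 0.0909) and 0.84 with DFO (adjusted p = 0.128). Of 9 markers of small cell lung cancer and neuroendocrine cells, 8 were measured and none was at 0. INSM1, a neuroendocrine transcription factor, fell with both chelators (-3.37 with Dp44mT, -2.21 with DFO) and ENO2, an enolase also known as a HIF target, rose with both (2.03 and 1.74).

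The arrays of set 2 stood apart in part of the table. The fibroblast collagen COL1A2 read 7.55 and 9.28 with Dp44mT, 7.59 and 9.03 with DFO and 7.85 and 5.57 in control. It was thus highest on the second array of each chelator and lowest on the second control array, and this order was shared by 4 of 10 fibroblast markers (COL1A2, COL3A1, DCN and POSTN), 1 of 7 endothelial markers (PECAM1) and 0 of 6 leukocyte markers measured. It was found in 7.81% of all genes tested, VEGFA and NDRG1 among them, and in 2 of the 27 members, SREBF1 and MYLIP. Over the 10 fibroblast markers, the summed intensity as deposited was 1531 to 1867 on Dp44mT arrays, 1504 to 2011 on DFO arrays and 1050 to 1795 on control arrays. These sums are on no common scale. After quantile normalization the median of the 10 was 7.29 and 8.10 with Dp44mT, 7.25 and 8.11 with DFO and 7.21 and 5.77 in control. Of the 10, 8 passed the filter on low values and were tested, and none of these 8 passed the test. What part the order of COL1A2 has in the values of SREBF1 and MYLIP was not tested.

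Across the 27 members, 1 gene passed the test against control: INSIG2, with DFO. The test is limma's moderated one, and a gene passes where its p, adjusted by Benjamini and Hochberg's method over all 16868 genes, is under 0.05. With DFO, 1 of the 27 members rose and 0 fell, where 1.10% of all genes tested passed in either direction. With Dp44mT, 0 of the 27 passed, where 3.37% of all genes did. At an unadjusted p under 0.05 in limma there were 5 members with Dp44mT (INSIG2, HSD17B7, MYLIP, NPC1 and IDI1), beside 24.1% of all genes, and 5 with DFO (INSIG2, HSD17B7, MYLIP, SQLE and TM7SF2), beside 13.3% of all genes. The 2 control arrays serve for both chelators, whose values are given side by side with no likeness read between them.

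Members wholly on 1 side of the controls were counted as well. With Dp44mT, 12 of the 27 members were higher than control on both arrays with no overlap and 6 were lower, where 30.3% of all genes tested were higher without overlap and 33.1% were lower. With DFO, 7 members were higher without overlap and 10 were lower, where the shares of all genes were 17.1% and 30.0%. The median change over the 27 members was 0.26 with Dp44mT and -0.16 with DFO, where the medians of all genes tested were 0.03 and -0.03. The Dp44mT median depends on the scaling: it was -0.45 on unscaled values, on which the median of all genes was -0.50, so that relative to all genes it was 0.06 there and 0.24 after quantile normalization.

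**Figure D1:**
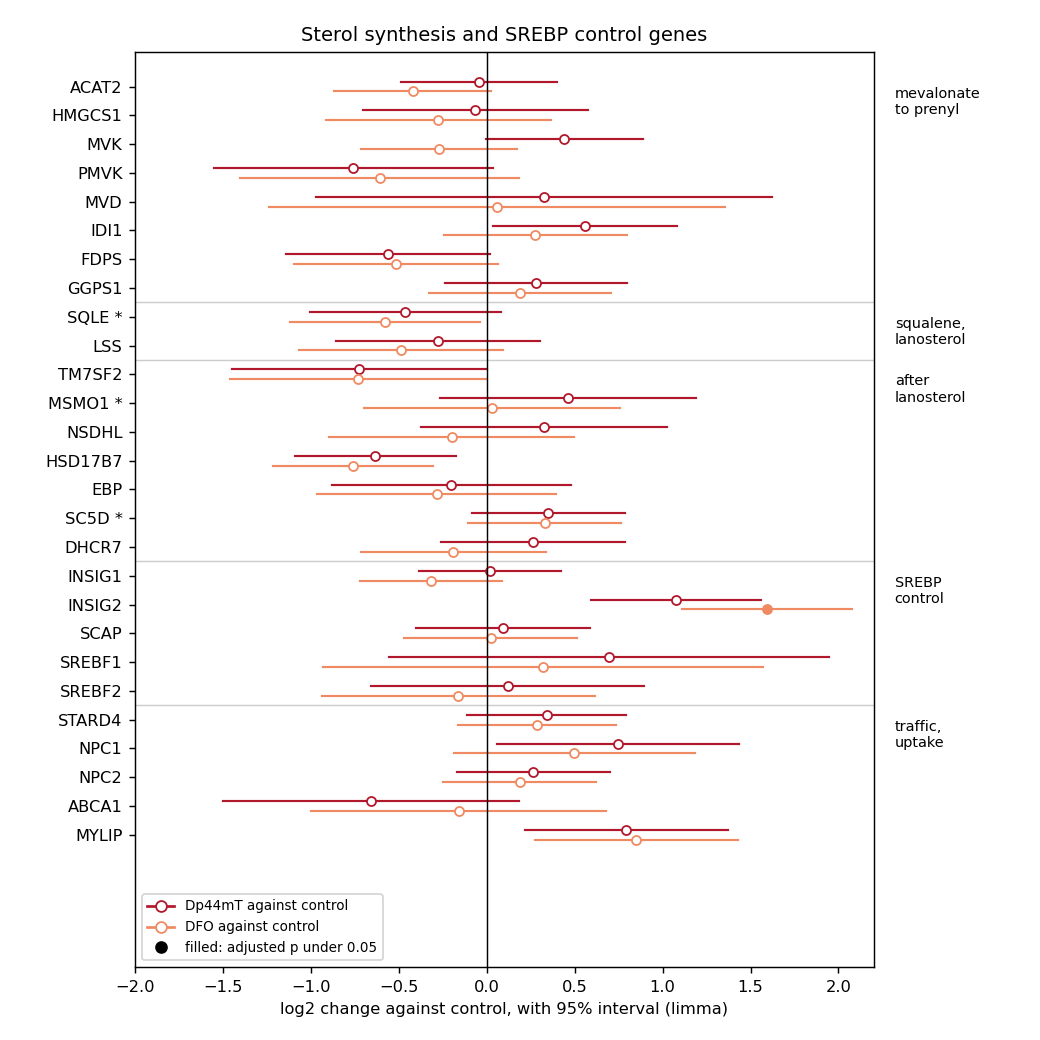
Log2 change against control of the 27 members measured by a probe set of their own, as points with 95% intervals from limma; Dp44mT is drawn above DFO for each gene, filled points passed an adjusted p of 0.05, and asterisks mark oxygen-using steps. INSIG2 with DFO is the only filled point (1.59), and on unscaled values the sign of 13 of the 27 Dp44mT points and 8 of the 27 DFO points is the opposite of the one drawn.

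INSIG2, one of the 2 anchors that hold SCAP and with it the SREBPs in the endoplasmic reticulum, read 8.86 and 8.89 with Dp44mT, 9.53 and 9.26 with DFO and 7.91 and 7.69 in control. Every chelator array lay above both control arrays, and both DFO arrays lay above both Dp44mT arrays. With DFO it rose by 1.59 ± 0.19 (SE, n = 2 arrays each, 95% interval 1.11 to 2.08), a 3.02-fold difference, at an adjusted p of 0.0369 in limma. With Dp44mT the difference was 1.08 ± 0.19 (95% interval 0.59 to 1.56), with an adjusted p of 0.0537 in limma, outside the threshold. The intensities as deposited were 488 and 252 with Dp44mT, 1001 and 433 with DFO and 276 and 237 in control, so that the dim second Dp44mT array lay below the first control array before scaling.

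The INSIG2 call is close to the threshold. Over 18 alternative settings the DFO change stayed positive in 18, between 1.31 and 1.73, and was called in 7, with adjusted p from 0.0176 to 0.925. It was not called when any 1 of the 6 arrays was left out, where the adjusted p was 0.0872 without Dp44mT array 2, 0.0970 without Dp44mT array 1, 0.157 without DFO array 2, 0.164 without DFO array 1, 0.373 without control array 1 and 0.470 without control array 2. The Dp44mT change stayed positive in the same 18 settings, between 0.43 and 1.19, and was called in 5, with adjusted p from 0.0346 to 0.727. INSIG2 has a single probe set, so no second one on the array bears on it, and when each of 41006 probe sets past the filter was tested alone the adjusted p was 0.0740 with Dp44mT and 0.0546 with DFO, where 1.63% and 0.588% of probe sets passed.

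**Figure D2:**
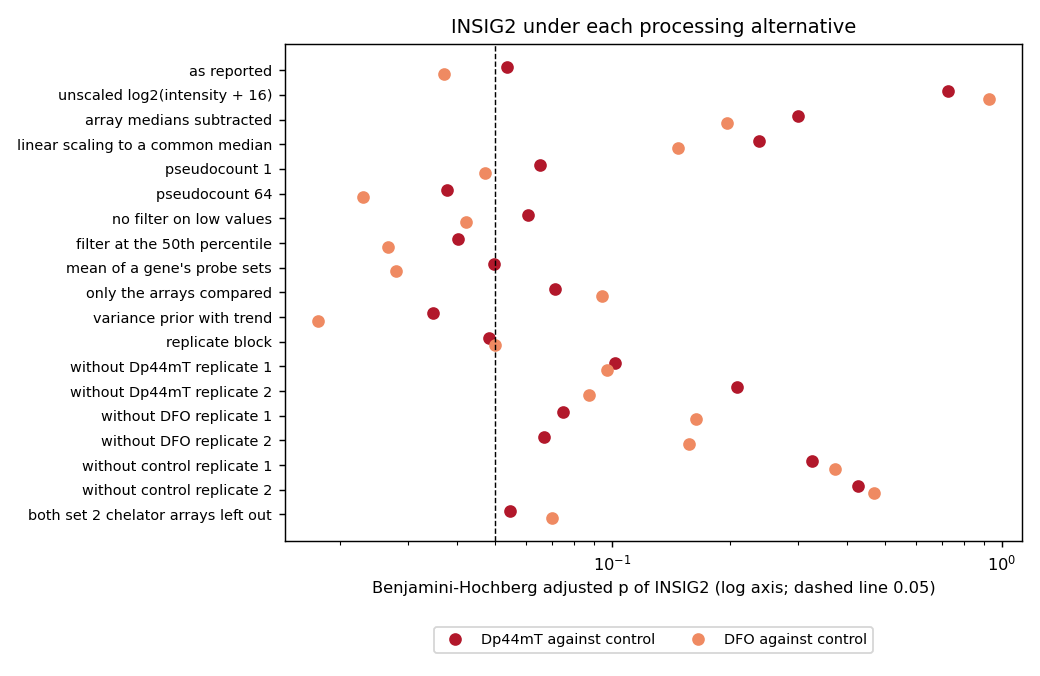
Adjusted p of INSIG2 (log axis) for Dp44mT and DFO against control, as reported and under 18 alternative settings down the page; the dashed line is 0.05. The DFO points lie left of the line in 7 of the 18 alternatives and the Dp44mT points in 5.

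The paralogue INSIG1, itself a classic SREBP target, read 9.83 and 9.84 with Dp44mT, 9.46 and 9.53 with DFO and 9.80 and 9.83 in control. The Dp44mT arrays lay among the controls (0.02, 95% interval -0.38 to 0.42) and the DFO arrays below them (-0.32, 95% interval -0.72 to 0.09, adjusted p = 0.484 in limma). Its 3 probe sets did not all go the same way with Dp44mT, running from -0.62 to 0.24, while all 3 were lower with DFO, from -0.57 to -0.19. Of these, 201626_at lay below the controls on every chelator array (-0.62 and -0.57), and 201625_s_at overlapped them with both chelators. Whether INSIG2 and INSIG1 differed in their change was not tested.

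SCAP, the escort of the SREBPs, read 7.64 and 7.43 with Dp44mT, 7.62 and 7.32 with DFO and 7.47 and 7.42 in control. Its groups overlapped, with changes of 0.09 (95% interval -0.40 to 0.59) and 0.02 (95% interval -0.47 to 0.51). SREBF2, the SREBP that mainly drives sterol genes, read 9.36 and 8.70 with Dp44mT, 8.98 and 8.53 with DFO and 9.05 and 8.77 in control, again overlapping, with changes of 0.12 and -0.16. Its other 2 probe sets, 201248_s_at and 242748_at, gave 0.24 and 0.49 with Dp44mT and -0.24 and 0.10 with DFO. Both lay above the controls without overlap with Dp44mT. With DFO, 201248_s_at lay below the controls without overlap and 242748_at overlapped them.

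SREBF1, the SREBP that mainly drives fatty acid genes, read 8.67 and 9.51 with Dp44mT, 8.21 and 9.22 with DFO and 8.76 and 8.03 in control. This is the order of COL1A2, highest on the second array of each chelator and lowest on the second control array, and the changes of 0.70 and 0.32 had 95% intervals of -0.56 to 1.95 and -0.93 to 1.57. Its other probe set read 8.01 and 7.45 with Dp44mT, 7.72 and 7.55 with DFO and 7.68 and 7.66 in control, and did not have that order. There the changes were 0.06 with Dp44mT and -0.04 with DFO.

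**Figure D3:**
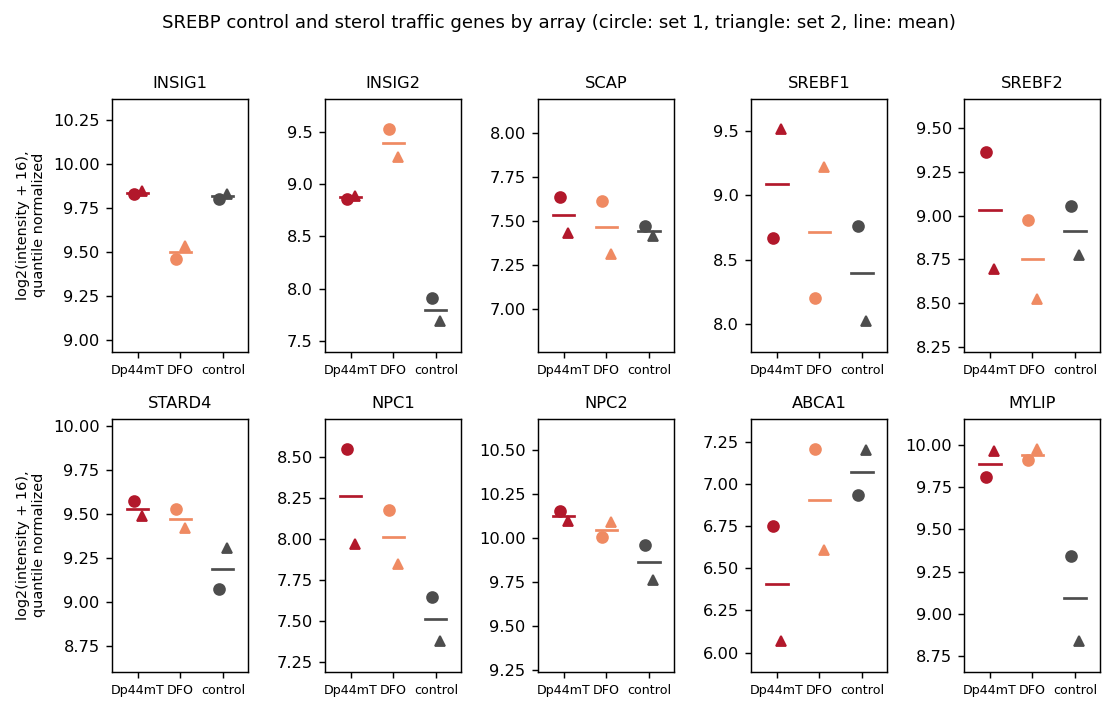
Quantile-normalized log2(intensity + 16) of the 5 SREBP control genes (upper row) and 5 sterol traffic and uptake genes (lower row) on each array, with circles for set 1, triangles for set 2 and a line at each group mean. For INSIG2, STARD4, NPC1, NPC2 and MYLIP all 4 chelator arrays lie above both control arrays as normalized (STARD4 and NPC2 have the opposite sign on unscaled values), and each panel has its own scale.

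Among the genes of traffic and uptake, 4 of 5 lay above control with no overlap with Dp44mT, where 30.3% of all genes did. With DFO, 4 of 5 did, where 17.1% of all genes did. Both comparisons use the same control arrays, and the share of all genes above control with both chelators was not worked out. On unscaled values STARD4 and NPC2 turned negative, to -0.38 and -0.45 with Dp44mT and -0.07 and -0.18 with DFO. With either chelator, 0 of 5 passed the adjusted test. At an unadjusted p under 0.05 in limma there were 2 with Dp44mT (24.1% of all genes) and 1 with DFO (13.3%). MYLIP, also called IDOL, a ubiquitin ligase that marks lipoprotein receptors for breakdown, read 9.81 and 9.96 with Dp44mT, 9.91 and 9.97 with DFO and 9.35 and 8.84 in control. All chelator arrays were above the controls, in the order of COL1A2, and the difference from control was 0.46 and 0.57 in set 1 and 1.12 and 1.13 in set 2 for Dp44mT and DFO. Its changes were 0.79 ± 0.23 (adjusted p = 0.123) and 0.85 ± 0.23 (adjusted p = 0.220; SE, n = 2 arrays each, limma). 4 of its 6 probe sets were higher with Dp44mT by 0.68 to 0.98 and with DFO by 0.85 to 0.91. The other two were 227707_at, whose readings of 6.88 and 9.25 with Dp44mT, 7.23 and 8.61 with DFO and 7.49 and 7.97 in control differed most between the arrays of a group, and 228097_at, which was lower than control by 1.02 and 0.37 on average.

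NPC1, the membrane protein that passes cholesterol out of lysosomes, read 8.55 and 7.97 with Dp44mT, 8.17 and 7.85 with DFO and 7.65 and 7.38 in control. All chelator arrays were above the controls, with changes of 0.75 (95% interval 0.06 to 1.43, adjusted p = 0.182 in limma) and 0.50 (95% interval -0.19 to 1.19, adjusted p = 0.523). NPC2, its soluble partner, read 10.16 and 10.10 with Dp44mT, 10.01 and 10.09 with DFO and 9.96 and 9.76 in control, a separation without overlap of 0.26 and 0.19. STARD4, a soluble sterol carrier and SREBP target, read 9.57 and 9.49 with Dp44mT, 9.53 and 9.42 with DFO and 9.07 and 9.31 in control, again without overlap, with changes of 0.34 and 0.28. ABCA1, the pump that exports cholesterol to apolipoproteins, went the other way with Dp44mT: it read 6.75 and 6.07 there, 7.20 and 6.61 with DFO and 6.93 and 7.20 in control. The Dp44mT arrays were below both controls (-0.66, 95% interval -1.50 to 0.18) and the DFO arrays overlapped them (-0.16).

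The 17 sterol enzymes lay on both sides of control. None passed the adjusted test with either chelator, and 2 with Dp44mT and 3 with DFO had an unadjusted p under 0.05 in limma, where 24.1% and 13.3% of all genes did. With Dp44mT, 7 were above control without overlap and 5 below (30.3% and 33.1% of all genes), and the median change was -0.04. With DFO, 2 were above and 9 below (17.1% and 30.0% of all genes), and the median change was -0.28. On unscaled values the changes of the 7 were all negative, from -0.45 (DHCR7) to -0.14 (IDI1), where the median of all genes was -0.50. Those of the 2, IDI1 and SC5D, were -0.14 and -0.09 with DFO, where the median of all genes was -0.32. Taken by set number, the median difference from control was 0.25 in set 1 and -0.10 in set 2 with Dp44mT, and -0.25 and -0.38 with DFO.

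From acetyl-CoA to the prenyl diphosphates, 8 enzymes were measured. ACAT2, the thiolase at the head of the pathway, read 10.02 and 9.80 with Dp44mT, 9.55 and 9.51 with DFO and 10.01 and 9.90 in control. Only its DFO arrays lay clear of the controls, with a change of -0.42 (95% interval -0.87 to 0.02), against -0.04 with Dp44mT. HMGCS1, which makes HMG-CoA and is a standard SREBP target, read 9.89 and 9.48 with Dp44mT, 9.69 and 9.26 with DFO and 9.64 and 9.86 in control. Its groups overlapped, and the changes were -0.06 and -0.28. Its second probe set gave 0.61 with Dp44mT and 0.08 with DFO.

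MVK, the mevalonate kinase, was the enzyme on which the chelators stood farthest apart, by the probe set that stands for each gene. It read 10.04 and 9.997 with Dp44mT, 9.22 and 9.39 with DFO and 9.67 and 9.49 in control. The Dp44mT arrays lay above both controls (0.44, 95% interval -0.00 to 0.89) and the DFO arrays below them (-0.27, 95% interval -0.71 to 0.17). Its probe sets 204056_s_at, 215649_s_at and 236686_at gave 0.40, -0.05 and 0.34 with Dp44mT and -0.20, -0.45 and -0.18 with DFO. Of these, only the dim 236686_at lay clear of the controls, with Dp44mT alone. On unscaled values the MVK changes were -0.26 and -0.62. PMVK, the kinase that follows it, read 8.12 and 7.34 with Dp44mT, 8.002 and 7.75 with DFO and 8.64 and 8.33 in control. The chelator arrays all lay below the controls, with changes of -0.76 (95% interval -1.55 to 0.03) and -0.61 (95% interval -1.40 to 0.18). MVD, the decarboxylase that ends the mevalonate segment, read 7.65 and 6.48 with Dp44mT, 7.23 and 6.37 with DFO and 7.03 and 6.45 in control, a wider spread within groups than between them.

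IDI1, which turns isopentenyl into dimethylallyl diphosphate, read 11.37 and 11.15 with Dp44mT, 11.15 and 10.80 with DFO and 10.76 and 10.63 in control. Each chelator array was above both controls, with changes of 0.56 (95% interval 0.04 to 1.08, adjusted p = 0.186 in limma) and 0.28 (adjusted p = 0.643). The probe sets of IDI1 disagreed: 204615_x_at gave 0.64 and 0.27, while the dimmer 233014_at, at 5.25 and 4.57 with Dp44mT, 6.20 and 4.74 with DFO and 6.97 and 6.99 in control, gave -2.07 and -1.51. The array's naming gives the suffix x_at to probe sets that may bind other transcripts too, which makes the values of IDI1 and of HSD17B7 uncertain.

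FDPS, the farnesyl diphosphate synthase, read 9.74 and 9.39 with Dp44mT, 9.77 and 9.45 with DFO and 10.26 and 10.003 in control. All chelator arrays were below the controls, with changes of -0.56 (95% interval -1.14 to 0.02) and -0.52 (95% interval -1.10 to 0.06). GGPS1, which makes geranylgeranyl diphosphate for protein prenylation, read 9.89 and 9.69 with Dp44mT, 9.87 and 9.52 with DFO and 9.57 and 9.45 in control. Only its Dp44mT arrays were clear of the controls (0.28, and 0.19 with DFO), and a dimmer probe set gave -0.94 and -0.36.

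LSS, which closes the ring to lanosterol, read 8.89 and 8.47 with Dp44mT, 8.61 and 8.33 with DFO and 8.86 and 9.05 in control. The DFO arrays were below the controls (-0.49, 95% interval -1.07 to 0.09) and the Dp44mT arrays overlapped them (-0.28). All 3 of its probe sets were lower than control with both chelators. TM7SF2, a sterol reductase acting after lanosterol, read 8.15 and 7.56 with Dp44mT, 8.07 and 7.63 with DFO and 8.69 and 8.47 in control. Its chelator arrays were all below the controls, with changes of -0.72 (adjusted p = 0.208) and -0.73 (adjusted p = 0.372 in limma).

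HSD17B7, the ketoreductase of demethylation after lanosterol, read 9.68 and 9.44 with Dp44mT, 9.50 and 9.36 with DFO and 10.19 and 10.19 in control. The controls were nearly equal and all chelator arrays lay below them, with changes of -0.63 ± 0.18 (adjusted p = 0.120) and -0.76 ± 0.18 (adjusted p = 0.177; SE, n = 2 arrays each, limma). NSDHL, the dehydrogenase of the same demethylation, read 9.12 and 8.63 with Dp44mT, 8.61 and 8.08 with DFO and 8.61 and 8.49 in control. Only its Dp44mT arrays were clear of the controls, and only just (0.33, and -0.20 with DFO), and its second probe set gave 0.47 and -0.09.

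EBP, the sterol isomerase, read 10.33 and 9.88 with Dp44mT, 10.20 and 9.85 with DFO and 10.51 and 10.11 in control, with overlap and changes of -0.20 and -0.28. Its 4 probe sets differed: 202735_at gave -0.15 and -0.38, 213789_at gave 0.20 and, below the controls without overlap, -0.21, and 231320_at gave 0.76 with Dp44mT, above the controls without overlap, and 0.17 with DFO. DHCR7, a reductase of the last steps to cholesterol, read 11.35 and 10.93 with Dp44mT, 10.75 and 10.63 with DFO and 10.88 and 10.89 in control. The Dp44mT arrays were above the controls (0.26, 95% interval -0.26 to 0.79) and the DFO arrays below (-0.19, 95% interval -0.72 to 0.33). Both of its probe sets ran this way, the second at 0.32 and -0.13.

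Among the oxygen-using enzymes with a probe set of their own, the epoxidase SQLE was the one below the controls with both chelators. SQLE, which uses oxygen but no iron, read 10.75 and 10.46 with Dp44mT, 10.66 and 10.32 with DFO and 11.14 and 11.00 in control. All chelator arrays were below the controls, with changes of -0.46 (95% interval -1.003 to 0.08, adjusted p = 0.259 in limma) and -0.58 (95% interval -1.12 to -0.04, adjusted p = 0.344). All 4 of its probe sets were lower than control on average, by 0.06 to 0.56 with Dp44mT and 0.36 to 0.74 with DFO.

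SC5D and MSMO1, which carry iron as CYP51A1 does, gave other values. Whether the changes sort by iron content was not tested. SC5D, the sterol desaturase, read 11.39 and 11.23 with Dp44mT, 11.36 and 11.21 with DFO and 10.92 and 10.99 in control. All chelator arrays were above the controls, with changes of 0.35 (95% interval -0.09 to 0.79) and 0.33 (95% interval -0.11 to 0.76), while a dim second probe set gave -0.63 and -0.14. On unscaled values the SC5D changes were -0.35 and -0.09. MSMO1, the methylsterol oxidase, read 10.99 and 10.49 with Dp44mT, 10.59 and 10.03 with DFO and 10.36 and 10.19 in control. Only its Dp44mT arrays were clear of the controls (0.46, 95% interval -0.26 to 1.19), and the DFO arrays lay on both sides of them (0.03, 95% interval -0.70 to 0.76).

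The probe sets annotated to both LRRD1 and CYP51A1, the P450 that demethylates lanosterol, gave 2 readings. 216607_s_at read 11.11 and 10.62 with Dp44mT, 10.44 and 10.05 with DFO and 10.63 and 10.59 in control. 202314_at read 10.79 and 10.46 with Dp44mT, 10.44 and 10.20 with DFO and 10.53 and 10.73 in control. With DFO both were below the controls without overlap (-0.37 and -0.31), and with Dp44mT the changes were 0.25 and -0.00.

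**Figure D4:**
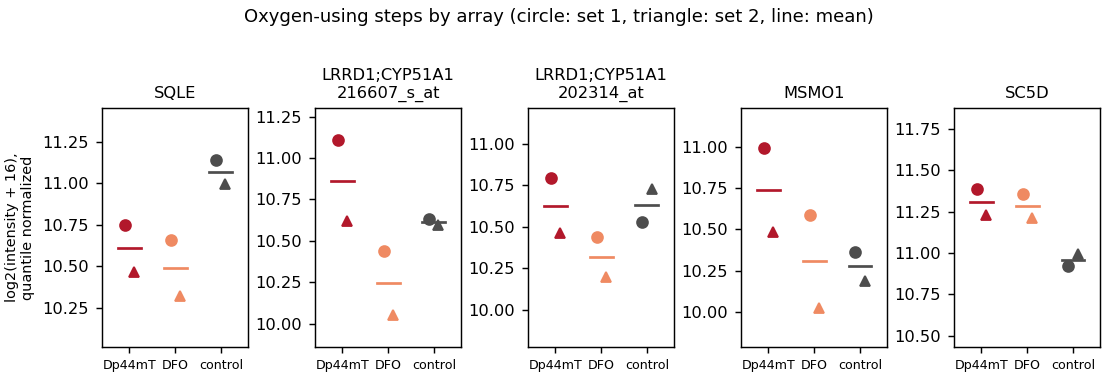
Quantile-normalized log2(intensity + 16) on each array for the oxygen-using steps, with CYP51A1 shown by its 2 probe sets that also carry the symbol LRRD1; circles are set 1, triangles set 2 and lines group means. SQLE is below both controls on all 4 chelator arrays and SC5D above them on all 4 as normalized (the SC5D changes are negative on unscaled values), and each panel has its own scale.

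Set against the other 14 enzymes, the 3 oxygen-using enzymes with a probe set of their own are described here without a test. Their median change was 0.35 with Dp44mT and 0.03 with DFO, against -0.05 and -0.28 for the other 14. On each array the mean of the 3 was set against the mean of the 14, which gave differences of 1.45 and 1.57 with Dp44mT, 1.56 and 1.53 with DFO and 1.29 and 1.35 in control. These differences include probe effects that are the same on every array, so only their change between groups can be read, 0.19 with Dp44mT and 0.23 with DFO. The chelator arrays did not overlap the control arrays on this measure. CYP51A1, also an oxygen-using step, has no part in it. Its probe sets 216607_s_at and 202314_at gave 0.25 and -0.00 with Dp44mT and -0.37 and -0.31 with DFO. Taken with medians in place of means, the differences were 1.18 and 1.03 with Dp44mT, 1.13 and 0.95 with DFO and 1.27 and 1.32 in control, so the direction turned with the summary used.

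Dp44mT set directly against DFO asks which members the chelators moved to different levels, at doses that differ. 0 of the 27 members passed, as did 0% of all 16868 genes, and 2 members, MVK and INSIG2, had an unadjusted p under 0.05 in limma, where 4.26% of all genes did. MVK was higher with Dp44mT than with DFO by 0.71 (95% interval 0.27 to 1.16, adjusted p = 0.922 in limma), and INSIG2 was lower with Dp44mT, at -0.52 (95% interval -1.001 to -0.03, adjusted p = 0.922). Without overlap, 7 members were higher with Dp44mT and 1, INSIG2, was lower, where the shares of all genes tested were 14.4% and 13.1%. Of the 17 enzymes, 5 were higher without overlap and 0 lower. Compared within each set, 14 of the 17 were higher with Dp44mT in both sets and 1 was lower in both, where 36.6% and 33.2% of all genes tested were. The median difference of the enzymes was 0.21, which became -0.14 on unscaled values, on which the median of all genes was -0.24. For the remaining members a missed threshold does not show that the chelators acted alike: the median half-width of the 95% intervals over all genes was 0.64.

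Of the 27 genes, 16 had several probe sets past the filter on low values. All probe sets of a gene lay on the same side of control for 8 of these 16 genes with Dp44mT and for 7 with DFO. SQLE and LSS had every probe set lower with both chelators, and NPC1 had both of its tested probe sets higher with both. IDI1, GGPS1, SC5D and MYLIP were each split between a brighter probe set above control and a dimmer one below it, with both chelators.

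**Figure D5:**
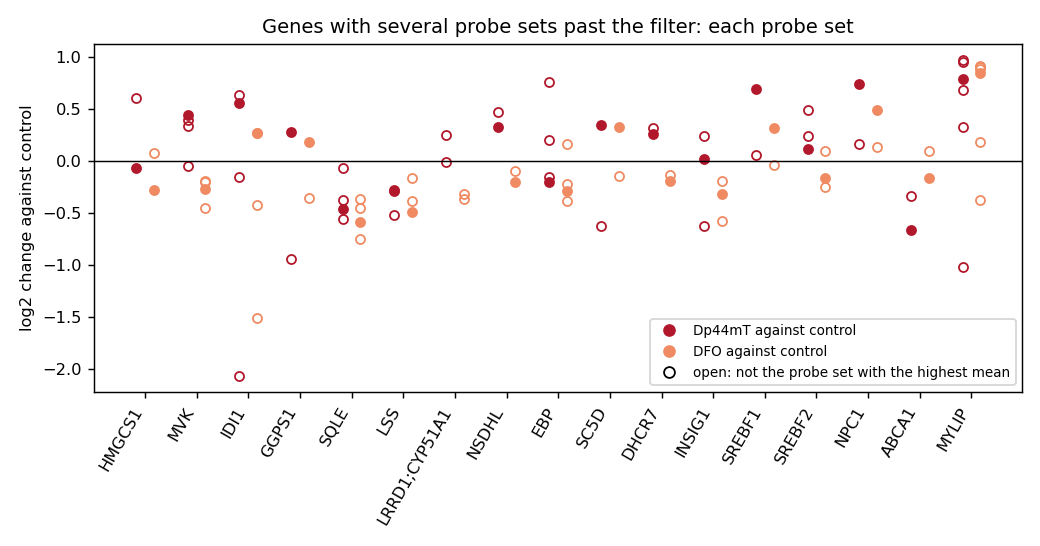
Log2 change against control of every probe set past the filter, for the 16 genes with several and for the probe sets of LRRD1 and CYP51A1, with Dp44mT left of DFO; filled points are the probe set with the highest mean, which stands for the gene. The lowest points are those of IDI1 probe set 233014_at, at -2.07 and -1.51, while the 4 points of SQLE are below 0 with each chelator.

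Other genes of the pathway and its surroundings were read from lists of related genes. Of the fatty acid and lipid genes under SREBP control, 13 of 16 were measured, and 1 rose and 0 fell with Dp44mT (3.37% of all genes called), with 0 called with DFO (1.10% of all genes). At an unadjusted p under 0.05 in limma there were 6 with Dp44mT and 3 with DFO, where 24.1% and 13.3% of all genes were. The 1 was LPIN1, a phosphatidate phosphatase and SREBP target, at 9.27 and 9.24 with Dp44mT, 9.05 and 8.86 with DFO and 7.86 and 7.71 in control. All chelator arrays lay above the controls. With Dp44mT it rose by 1.47 ± 0.17 (SE, n = 2 arrays each, adjusted p = 0.0251 in limma), a 2.76-fold difference, and with DFO the difference was 1.17 ± 0.17 (adjusted p = 0.0627). The Dp44mT call held in 10 of 18 alternative settings, and was lost without either Dp44mT array (adjusted p 0.0832 without array 1, 0.130 without array 2) or either control array (0.285 without array 1, 0.313 without array 2). It was also lost with the mean of its probe sets (1.09, adjusted p = 0.0665) and under each other scaling: on unscaled values (0.82, adjusted p = 0.475), with array medians subtracted (1.19, 0.144) and with linear scaling (1.25, 0.107). Most of the list went the other way from LPIN1. With Dp44mT, 3 of the 13 were above the controls without overlap and 8 below (30.3% and 33.1% of all genes). With DFO, 2 were above and 7 below (17.1% and 30.0%). The median change of the 13 genes was -0.40 with Dp44mT and -0.26 with DFO.

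Of 22 other regulators and sterol-handling genes, 19 were measured and 17 passed the filter. With 0 called, 6 had an unadjusted p under 0.05 in limma with Dp44mT and 4 with DFO (24.1% and 13.3% of all genes), and the median changes of the 19 were -0.43 and -0.27. MBTPS2, the protease that makes the second cut that frees SREBP, read 8.34 and 7.90 with Dp44mT, 8.98 and 8.48 with DFO and 9.49 and 9.42 in control. All chelator arrays were below the controls, with changes of -1.34 (adjusted p = 0.0645 in limma) and -0.73 (adjusted p = 0.331). LBR, a nuclear envelope protein that is also a sterol reductase, read 9.08 and 8.44 with Dp44mT, 9.40 and 8.85 with DFO and 10.32 and 10.28 in control, and was below the controls by 1.54 and 1.17 on average (adjusted p = 0.0667 and 0.211).

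Of 6 electron donors of the oxygen-using steps, 5 were measured, 0 were called and 1 had an unadjusted p under 0.05 in limma with each chelator (24.1% of all genes with Dp44mT, 13.3% with DFO). That was CYB5A, cytochrome b5, at 11.24 and 10.79 with Dp44mT, 11.35 and 11.15 with DFO and 11.89 and 11.93 in control. It lay below the controls on every chelator array, with changes of -0.90 (adjusted p = 0.0930 in limma) and -0.66 (adjusted p = 0.299). CYB5B, the mitochondrial outer membrane form, was also below the controls on every chelator array, with changes of -0.40 and -0.22. The list did not all go the same way, and its median changes were -0.07 and -0.22. With Dp44mT, 1 of the 5 was above the controls without overlap and 3 below (30.3% and 33.1% of all genes). With DFO, 1 was above and 4 below (17.1% and 30.0%). POR was above with Dp44mT (0.17) and below with DFO (-0.25), and CYB5R3 was below with Dp44mT (-0.07) and above with DFO (0.08).

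All 12 genes of the isoprenoid branches, which use the prenyl diphosphates for other products, were measured. 0 were called, with 3 and 2 at an unadjusted p under 0.05 in limma with Dp44mT and DFO (24.1% and 13.3% of all genes), and median changes of -0.07 and -0.15. DOLK, the dolichol kinase of protein glycosylation, read 6.004 and 5.48 with Dp44mT, 6.69 and 5.85 with DFO and 7.68 and 7.65 in control. Its deposited intensities were low, at 54 and 19 with Dp44mT, 100 and 36 with DFO and 232 and 230 in control. The reading of 5.48 is below 5.55, the filter's limit for a gene's mean, so the size of the fall is uncertain. Again the chelator arrays lay below the controls, with changes of -1.92 (adjusted p = 0.0549 in limma) and -1.40 (adjusted p = 0.189). RABGGTB, a subunit of the enzyme that prenylates Rab proteins, read 11.31 and 11.21 with Dp44mT, 10.97 and 11.12 with DFO and 10.67 and 10.61 in control. It lay above the controls throughout, with changes of 0.61 (adjusted p = 0.111 in limma) and 0.40 (adjusted p = 0.401). On unscaled values its changes were -0.09 and -0.02.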

How the data were processed

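The authors deposited 1 linear intensity per probe set and array. The submitters' processing notes name Affymetrix Expression Console 1.1. The summarization and normalization are not given in the sources used here. Here they were turned into log2(intensity + 16), quantile normalized over the 6 arrays and fitted with limma 3.58.1 in R 4.3.3. The log2 scale is thus of this processing.

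Of 54675 probe sets, 41097 had 1 symbol in the platform annotation, 1801 several and 11777 none. A gene was represented by its single-symbol probe set with the highest mean, and genes under the 25th percentile of all probe sets (5.55) were left out, leaving 16868. limma's moderated test, two-sided, used all 3 groups (3 residual and 2.22 prior degrees of freedom), with Benjamini-Hochberg adjustment within a comparison. Its code was tested on simulated data. The number of arrays limits the precision.

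Named were all members, the treatment check genes, and from each related list the genes past the threshold or else the 2 with the smallest p in Dp44mT against control. COL1A2, COL3A1, DCN, POSTN, PECAM1, POR and CYB5R3 were chosen after their values were seen. Members and lists were chosen with earlier results of these data known. First-array deviations from group means correlated at 0.843 between Dp44mT and DFO but at -0.353 and -0.254 between each chelator and control. They thus showed no pairing of chelator with control arrays by the set numbers of the titles. The second array of each chelator was also the dimmer one, so these values cannot tell whether the arrays of a set were handled together. Alternatives changed the scaling, pseudocount, filter, probe set choice, arrays fitted, variance prior and block, and left arrays out.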

Additional observations from a re-analysis of the deposited data

How the results depend on the processing

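With DFO, 0 members were called, INSIG2 being lost, on unscaled values, with array medians subtracted, with linear scaling, with only the arrays compared in the fit, with every probe set tested alone, without both set 2 chelator arrays, and without any 1 array (0 to 0). With Dp44mT, 1 member, INSIG2, was called with a pseudocount of 64, a filter at the 50th percentile, the mean of a gene's probe sets, a variance prior with trend, and the replicate block (adjusted p = 0.0484 in limma), and 0 without any 1 array. By set number the chelator arrays ran together, while whether they pair with the control arrays could not be told. With the replicate block INSIG2 kept its DFO call (adjusted p = 0.0499 in limma), and 0 members were called between the chelators.

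The enzyme median with Dp44mT, -0.04, was -0.76 on unscaled values, -0.39 with medians subtracted, -0.31 with linear scaling and 0.14 without both set 2 chelator arrays, and -0.26 to 0.14 with 1 array left out. With DFO, -0.28, it was -0.64 unscaled, -0.13 without both set 2 chelator arrays, and -0.46 to -0.13 with 1 left out. For Dp44mT against DFO, 0.21, it was -0.14 unscaled, 0.000722 with medians subtracted, 0.0313 with linear scaling, and -0.0040 to 0.39 with 1 left out. The causes of these moves were not tested beyond the shift of all genes: unscaled, the median of all genes was -0.50 with Dp44mT and -0.32 with DFO, and with medians subtracted -0.13 with Dp44mT. Relative to all genes the enzyme median with Dp44mT was -0.07 as reported and -0.26 unscaled, and with DFO -0.24 and -0.31.

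Members changed sign in 42 of 486 values with Dp44mT, 29 of 486 with DFO and 60 of 486 between the chelators, and INSIG2 in none against control. Over all genes the calls ran from 66 to 1264 with Dp44mT and 26 to 400 with DFO, and from 0 to 1247 and 0 to 97 with arrays left out, against 569 and 185 as reported. Of these calls 323 were higher and 246 lower with Dp44mT (25 and 41 unscaled) and 175 and 10 with DFO (18 and 8 unscaled). Probe sets with values under 16 made up 10.1% to 20.3% of an array, most on the second Dp44mT array, which limits what dim probe sets can show.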
